A study of Mus musculus with 6 samples.

Results

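The CC chemokines are small secreted proteins, named for a pair of adjacent cysteines, that guide the movement of leukocytes through G protein-coupled receptors of the CCR family. In macrophages some are made at rest, while others are induced by inflammatory signals through NF-kB and AP-1. Those that bind CCR2 recruit monocytes from the blood and bone marrow. 10 genes of this family, taken by name from a table of 55401 genes, are described here: Ccl2, Ccl7, Ccl8 and Ccl12, which belong to the monocyte chemoattractant proteins; Ccl3, Ccl4 and Ccl5, which activated macrophages secrete; Ccl6 and Ccl9, which resting mouse macrophages express; and Ccl22, a ligand of CCR4. Each name matched 1 row of the table.

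RNA sequencing was carried out on bone marrow-derived macrophages, cells grown from mouse bone marrow with the macrophage growth factor M-CSF. There were 3 libraries labelled Lamtor5 knockdown and 3 labelled WT, all from M-CSF-induced cells. Lamtor5 (HBXIP) belongs to Ragulator, the complex that tethers mTORC1 to lysosomes. The design text names HBXIPΔLysM mice, a notation for deletion in myeloid cells by Cre recombinase driven from the LysM (Lyz2) locus, whereas the sample labels say knockdown. Strain, age, number of animals and whether replicates came from separate mice or cultures are not stated in the labels. The p-values therefore reflect the variation among the 6 libraries, part or all of which may be technical.

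Sequencing depth was even, from 26001754 read pairs in the shallowest library to 27990481 in the deepest. Lamtor5 was at 24.8 to 27.1 FPKM (fragments per kilobase of transcript, scaled to library size, a level corrected for length and depth) in knockdown libraries and at 54.5 to 56.2 FPKM in WT, in the direction of the labels. Lyz2, the LysM locus itself, stood apart in knockdown replicate 3, at 73.6 FPKM against 11356 and 10650 FPKM in knockdown replicates 1 and 2 and 29379, 24743 and 22454 FPKM in WT. All 3 knockdown libraries carry the same genotype label, and whether replicate 3 differed from the other 2 at this locus was not tested. The calls over all genes also depended on single libraries: without WT replicate 2 no gene passed edgeR's adjusted threshold (4065 genes had an unadjusted p under 0.05, and the smallest adjusted p was 0.0616). Macrophage genes were expressed in both groups but at different levels. Csf1r was at 445 ± 97.2 FPKM in WT against 191 ± 31.6 in the knockdown, and Cd68 at 946 ± 21.8 against 1415 ± 149 (mean ± SD, n = 3). In edgeR Csf1r was called lower in the knockdown (adjusted p = 0.0173) and Cd68 higher (0.0198). Of the 10 macrophage genes listed 6 fell, as given below.

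9 of the 10 genes lie in 2 clusters on mouse chromosome 11 (GRCm38), at the same coordinates in the table and in GENCODE M21. The first cluster spans 81.2 kb from Ccl2 to Ccl8 and holds Ccl2 (ENSMUSG00000035385, chr11:82035571-82037453), Ccl7 (ENSMUSG00000035373, chr11:82045712-82047525), Ccl12 (ENSMUSG00000035352, chr11:82101845-82103400) and Ccl8 (ENSMUSG00000009185, chr11:82115185-82116799), all on the plus strand with 3 exons each. The second lies 1409.0 kb further on, spans 138.9 kb, and holds Ccl5 (ENSMUSG00000035042, chr11:83525778-83530518), Ccl9 (ENSMUSG00000019122, chr11:83572919-83578636), Ccl6 (ENSMUSG00000018927, chr11:83587882-83593087) and Ccl3 (ENSMUSG00000000982, chr11:83647844-83649355) on the minus strand and Ccl4 (ENSMUSG00000018930, chr11:83662584-83664683) on the plus strand. Ccl22 (ENSMUSG00000031779, chr8:94745590-94751699, plus strand) stands alone on chromosome 8. Reads of these genes were largely distinguishable: of the 31-base words in their annotated transcripts, 3.98% of Ccl9, 1.02% of Ccl6 and 0.539% of Ccl5 also occurred in the transcripts of another gene, and none of the other 7.

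Ccl9 and Ccl6 are neighbours, 9.2 kb apart on the same strand, and they are both chemokines of resting macrophages, but their measurements differed, as given below. The 250 bases before their start sites (RefSeq, GRCm38.p6, minus strand, chr11:83578637-83578886 for Ccl9 and chr11:83593088-83593337 for Ccl6) are shown for this reason. Capitals mark every match, on either strand, to 8 short motifs: the TATA box TATAAA, the kappaB pattern (3 G, any 5 bases, 2 C), the AP-1 site TGANTCA, the ETS and PU.1 core GAGGAA, the C/EBP pattern TTNNGNAAT, the GC box GGGCGG, the CLEAR element's E-box CACGTG and the core of the interferon-stimulated response element.
Ccl9: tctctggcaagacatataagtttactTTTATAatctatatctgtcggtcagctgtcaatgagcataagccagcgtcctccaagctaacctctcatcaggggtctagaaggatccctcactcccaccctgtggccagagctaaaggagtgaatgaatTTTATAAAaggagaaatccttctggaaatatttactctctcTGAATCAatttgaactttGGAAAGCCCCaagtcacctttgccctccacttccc
Ccl6: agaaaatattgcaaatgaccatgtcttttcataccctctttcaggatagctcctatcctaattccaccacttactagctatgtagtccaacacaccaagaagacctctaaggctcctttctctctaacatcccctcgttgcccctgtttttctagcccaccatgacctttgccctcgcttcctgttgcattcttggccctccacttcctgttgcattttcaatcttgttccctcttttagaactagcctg
In the Ccl9 window the capitals are TATAAA matches at bases -224 to -219, -94 to -89 and -92 to -87 (counted back from the start site, the latter 2 overlapping on opposite strands), an AP-1 match at -53 to -47 and a kappaB match on the opposite strand at -35 to -26. The Ccl6 window held no match to any of the 8. In the same 250 bases of 32851 RefSeq promoters, 12.4% held TATAAA, 6.7% the AP-1 site and 45.8% the kappaB pattern, and the last is common in sequence of this length. Promoters of Ccl3, Ccl8, Ccl12 and Ccl22 were also matched. Ccl8 had TATAAA at -32 to -27 and Ccl12 at -31 to -26, whereas Ccl3 and Ccl22 had none. The kappaB pattern matched in Ccl22, at -162 to -153 and -131 to -122, but not in Ccl3, Ccl8 or Ccl12. None of these promoters held the AP-1 site. Ccl3 had a C/EBP match at -100 to -92, and Ccl3, Ccl8 and Ccl12 each held the ETS and PU.1 core. A match is a stretch of letters, and binding was not measured. Ccl2, Ccl4, Ccl5 and Ccl7 had no entry.

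The comparison of knockdown with WT asks whether macrophages with less Lamtor5 carry different amounts of chemokine RNA, in a study whose title names immune homeostasis. In the knockdown 3 of the 10 genes fell: Ccl2 and Ccl7, whose products attract monocytes through CCR2, and Ccl9, whose product binds CCR1. The other genes tested, among them the inducible Ccl3, Ccl4 and Ccl5 and the resting-macrophage gene Ccl6, did not pass. The monocyte attractants and the constitutive macrophage chemokines each held genes that fell and genes that did not pass. 9 of the 10 were tested with edgeR's quasi-likelihood test, and Ccl12 was under the count filter. Over all 18164 genes tested 6.46% fell and 4.87% rose at a Benjamini-Hochberg adjusted p of 0.05. Of the 9 chemokines 3 fell and 0 rose. Their median log2 fold change was -0.49, against 0.02 over all genes tested. That median is the value of Ccl22, which did not pass (edgeR adjusted p = 0.685) and was at 0.01 without knockdown replicate 3. In bulk RNA, fewer cells that make a chemokine and less RNA in each cell cannot be told apart.

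**Figure D1:**
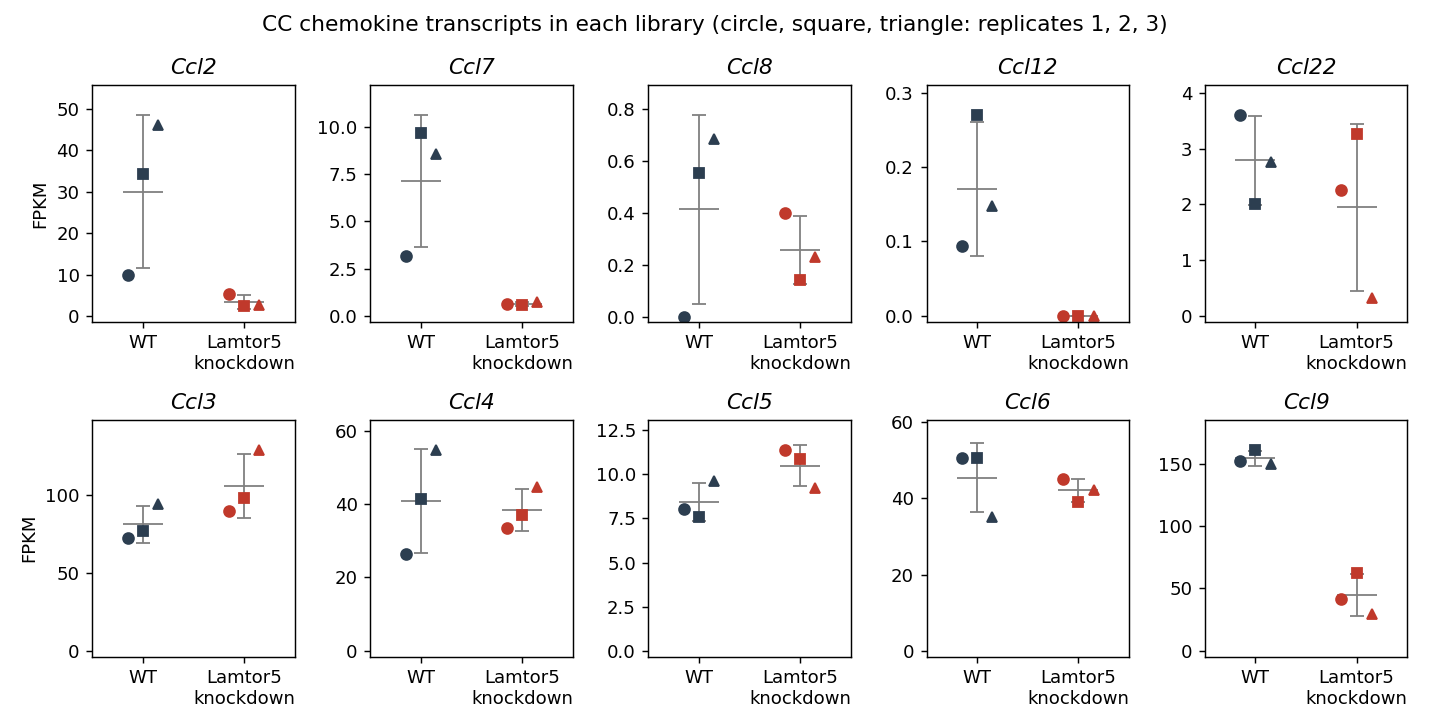
FPKM of the 10 CC chemokines (y axis of each panel, from 0) in the 3 WT and 3 Lamtor5 knockdown libraries, with the mean and SD in grey. All 3 knockdown libraries sit below all 3 WT libraries for Ccl2, Ccl7, Ccl9 and Ccl12, and the groups overlap for the other 6 genes.

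Ccl2 encodes the main ligand of CCR2. It was at 5.45, 2.35 and 2.60 FPKM in knockdown replicates 1 to 3 and at 9.80, 34.2 and 46.1 FPKM in WT replicates 1 to 3. The groups did not overlap, but WT replicate 1 lay much nearer to the knockdown than the other WT libraries, and the highest WT library held 4.70 times the lowest. The mean fell from 30.0 ± 18.5 to 3.47 ± 1.72 FPKM (SD, n = 3), with a log2 fold change of -3.04 (SE 0.614, edgeR adjusted p = 0.0278). The Ccl2 call rested on the full set of libraries: it was lost without any single library except WT replicate 1 (adjusted p 0.0597, 0.0836 and 0.0920 without knockdown replicates 1, 2 and 3, and 0.0954 and 0.0744 without WT replicates 2 and 3; 0.0130 without WT replicate 1), while its log2 fold change stayed between -3.55 and -2.60. With the replicate number as a block its adjusted p was 0.103.

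Ccl7, the gene next to Ccl2 (8.3 kb away), encodes another CCR2 ligand. It was at 0.631, 0.579 and 0.761 FPKM in the knockdown and at 3.16, 9.68 and 8.58 FPKM in WT. The knockdown libraries were close together, and WT replicate 1 was again the lowest of WT. The mean fell from 7.14 ± 3.49 to 0.657 ± 0.0935 FPKM, with a log2 fold change of -3.37 (SE 0.445, edgeR adjusted p = 0.0120). The adjusted p was 0.0616 without WT replicate 2 and 0.0518 without knockdown replicate 1, and 0.0106 to 0.0432 without each other library. Set against its neighbour within a library, Ccl7 was 0.116, 0.247 and 0.292 times Ccl2 in the knockdown and 0.323, 0.283 and 0.186 times Ccl2 in WT, with overlapping groups (exact two-sided permutation, p = 0.6).

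The other 2 monocyte chemoattractant proteins were near the limit of detection. Ccl12, also a CCR2 ligand, was listed at 0 in each knockdown library and at 5, 14 and 8 estimated counts (0.0937, 0.270 and 0.148 FPKM) in WT replicates 1 to 3. At about 3 estimated counts per read pair these are a few fragments, and no fold change is given. Ccl8 had 19, 7 and 11 estimated counts in the knockdown and 0, 27 and 33 in WT, at most 0.685 FPKM. Its groups overlapped, because WT replicate 1 was listed at 0, and its log2 fold change was -0.57 with an SE of 1.22 (edgeR adjusted p = 0.794). A change of Ccl8 or Ccl12 was thus not resolvable at this depth.

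Ccl9 was the most abundant of the 10 in WT and the steadiest there. It was at 152.7, 161.3 and 149.5 FPKM in WT replicates 1 to 3, a 1.08-fold range, and at 41.6, 62.4 and 29.6 FPKM in knockdown replicates 1 to 3. Every knockdown library lay far below every WT library. The mean fell from 154.5 ± 6.11 to 44.5 ± 16.6 FPKM, with a log2 fold change of -1.75 (SE 0.236, edgeR adjusted p = 0.0123). As for Ccl7, the call was lost without WT replicate 2 (adjusted p = 0.0644) and without knockdown replicate 1 (0.0524), and kept without each other library (0.0170 to 0.0432).

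Ccl6, the neighbour of Ccl9 and like it known as a CCR1 ligand, was at 45.2, 39.2 and 42.1 FPKM in the knockdown and at 50.7, 50.6 and 35.1 FPKM in WT. The knockdown values lay within the WT range. The log2 fold change was -0.06 with an SE of 0.163 (edgeR adjusted p = 0.839). Set against each other within a library, which removes any difference in scaling, Ccl9 was 3.01, 3.19 and 4.26 times Ccl6 in WT and 0.920, 1.59 and 0.704 times Ccl6 in the knockdown. This ratio differed by -1.77 on the log2 scale without overlap; an exact two-sided permutation gave p = 0.1, which 3 against 3 cannot go below, and 0.133 after adjustment over the 4 ratios computed. A non-coding gene of the other strand, E230016K23Rik, overlaps Ccl6, and without strand in the counting their reads cannot be told apart, but it was at 0.0851 FPKM or less in every library. Gm17268, which overlaps Ccl2 on the other strand, was listed at 0 in all 6.

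Ccl3, Ccl4 and Ccl5 encode inducible chemokines that attract monocytes and T cells. Ccl3 was at 89.8, 98.2 and 129 FPKM in the knockdown and at 72.0, 76.5 and 94.4 FPKM in WT. The groups overlapped through WT replicate 3, and the log2 fold change was 0.44 (SE 0.165, edgeR adjusted p = 0.132). Ccl4, 13.2 kb from Ccl3, was at 33.5, 37.0 and 44.7 FPKM in the knockdown and at 26.4, 41.4 and 54.9 FPKM in WT, so that the knockdown lay inside the WT range (-0.04, SE 0.253, adjusted p = 0.941). Ccl5, which T cells secrete as well, was at 11.4, 10.9 and 9.21 FPKM in the knockdown and at 8.03, 7.60 and 9.64 FPKM in WT (0.37, SE 0.151, adjusted p = 0.157). None of the 3 passed in any of the 14 alternative settings, and their log2 fold changes ranged over these from 0.26 to 0.55 for Ccl3, -0.27 to 0.22 for Ccl4 and 0.28 to 0.46 for Ccl5. Of 11 T and NK cell genes 6 were under 0.1 FPKM in every library, among them Cd3d, Cd3e, Cd3g and Cd8a. Of the others, Cd4 was at 4.52 to 8.46 FPKM in the knockdown and at 0.628 to 0.962 FPKM in WT. Trac reached 0.208, Nkg7 0.535, Gzmb 0.113 and Klrb1c 0.245 FPKM. The part of such cells in the Ccl5 value was not tested.

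Set against the inducible gene Ccl3, the monocyte attractant gene Ccl2 was 0.136, 0.448 and 0.488 times as abundant in WT and 0.0607, 0.0239 and 0.0202 times in the knockdown. Against Ccl6 it was 0.193, 0.676 and 1.31 times as abundant in WT and 0.121, 0.0598 and 0.0618 times in the knockdown. In both ratios the groups did not overlap, and WT replicate 1 was the WT library nearest to the knockdown. The differences were -3.33 and -2.86 on the log2 scale (p = 0.1 for each by the same exact permutation, 0.133 adjusted).

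Ccl22 encodes a chemokine for CCR4-bearing T cells that macrophages and dendritic cells secrete. It was at 2.25, 3.26 and 0.323 FPKM in the knockdown and at 3.60, 2.01 and 2.76 FPKM in WT. Knockdown replicate 3, the library with little Lyz2, was 10.1-fold below knockdown replicate 2, and the other knockdown libraries lay among WT. The log2 fold change was -0.49 (SE 0.700, edgeR adjusted p = 0.685) and 0.01 without knockdown replicate 3. Ccr7, which mature dendritic cells carry, was low in the same library, at 1.22 FPKM against 6.17 and 7.24 in the other 2 knockdown libraries and 3.83 to 5.57 in WT. In this library 2 other genes of the dendritic cell list were instead at their highest: Itgax was at 12.4 FPKM against 3.90 and 4.52, and Kit at 15.4 against 7.37 and 5.77, in knockdown replicates 1 and 2. The dendritic cell genes Flt3 and Zbtb46 were at 0.178 FPKM or less in every library. Clec9a was at 0.441 to 1.04 FPKM in the knockdown and at 0.211 to 0.387 FPKM in WT (1.56, edgeR adjusted p = 0.0561). Cd209a reached 0.779 FPKM with overlapping groups, and Xcr1 and Siglech were lower in the knockdown without overlap. None of these passed, and the part of dendritic cells in the Ccl22 value was not tested.

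**Figure D2:**
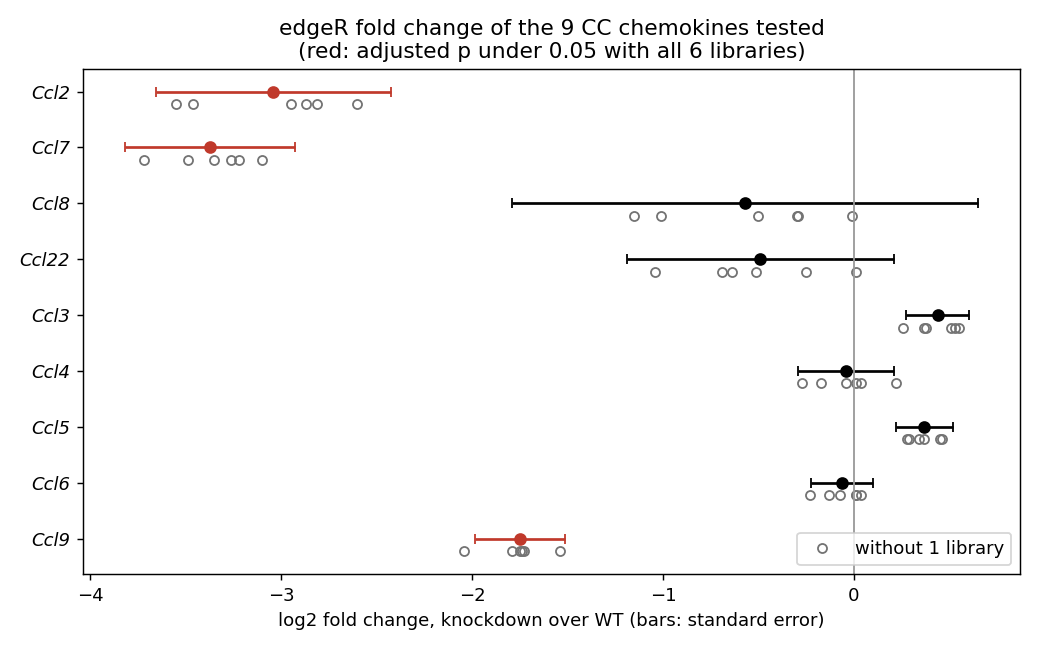
Log2 fold change (x axis, knockdown over WT, with its SE) of the 9 CC chemokines tested with edgeR, in red where the adjusted p was under 0.05, with the values after leaving out each library as open circles. Ccl2, Ccl7 and Ccl9 lie left of -1.5 in every case, and Ccl4, Ccl6 and Ccl22 have open circles on both sides of 0.

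Without overlap between the groups, Ccl2, Ccl7 and Ccl9 were lower in the knockdown, 3 of the 9 tested, and 0 were higher. Over all genes tested 21.3% were lower and 16.3% higher without overlap. WT replicate 1 had the lowest WT level of 6 of the 10 chemokines: Ccl2, Ccl7, Ccl8, Ccl12, Ccl3 and Ccl4. It had the highest WT level of Ccl6 and Ccl22.

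By position, the genes that fell were Ccl2 and Ccl7 at the start of the first cluster and Ccl9 inside the second. In the first cluster the only non-members are Gm17268 and the eotaxin gene Ccl11, both listed at 0 in every library. In the second, Ccl9 lies between Ccl5 (0.37) and Ccl6 (-0.06), neither of which passed. The non-members there were E230016K23Rik (log2 fold change -0.22, edgeR adjusted p = 0.817) and the pseudogene Rpl9-ps1, which was detected in 1 library.

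**Figure D3:**
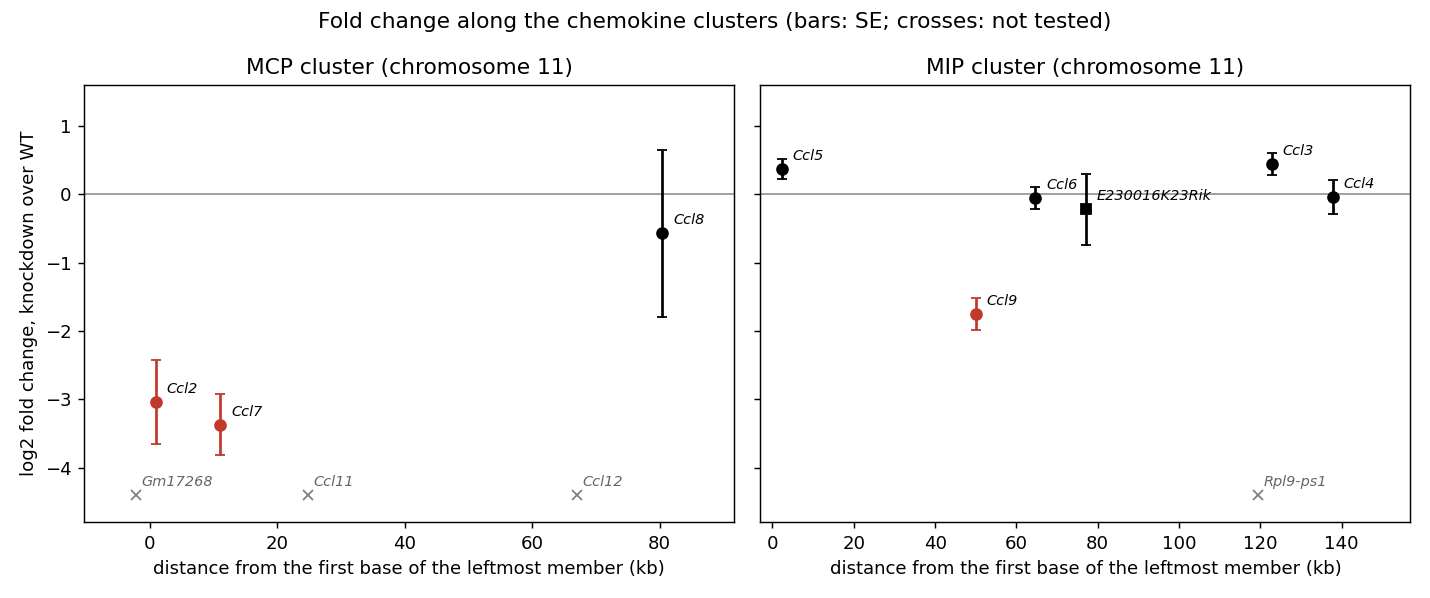
Log2 fold change (y axis, knockdown over WT, bars SE) of each gene along the chemokine clusters of chromosome 11, against the distance in kb from the first base of the leftmost member; red marks an adjusted p under 0.05, squares are non-members and crosses at the foot were not tested. Ccl2 and Ccl7 lie together near -3, and Ccl9 at -1.75 stands between Ccl5 and Ccl6 near 0.

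The make-up of the chemokine transcripts also differed. Summed over the 10 genes, WT held 326.6, 384.2 and 401.8 FPKM and the knockdown 230.2, 254.0 and 258.5 FPKM in replicates 1 to 3. Without Ccl9 the sums were 174, 223 and 252 FPKM in WT and 189, 192 and 229 FPKM in the knockdown, which overlap. Ccl9 made up 46.8%, 42.0% and 37.2% of the WT sum and 18.1%, 24.5% and 11.5% of the knockdown sum. Ccl3 took the place of the leading transcript, with 22.1%, 19.9% and 23.5% in WT and 39.0%, 38.7% and 49.9% in the knockdown. The share of a gene depends on all the others, so a larger share of Ccl3 does not show more Ccl3. Ccl2 held 8.91% and 11.5% in WT replicates 2 and 3 but 3.0% in WT replicate 1, near the 2.37% of knockdown replicate 1; the other 2 knockdown libraries were at 0.923% and 1.01%.

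By mean FPKM the order in WT was Ccl9, Ccl3, Ccl6, Ccl4, Ccl2, Ccl5, Ccl7, Ccl22, Ccl8 and Ccl12. Ranges of neighbours in this order overlapped for Ccl6 and Ccl4, Ccl4 and Ccl2, Ccl5 and Ccl7, Ccl7 and Ccl22, and Ccl8 and Ccl12. In the knockdown the order was Ccl3, Ccl9, Ccl6, Ccl4, Ccl5, Ccl2, Ccl22, Ccl7, Ccl8 and Ccl12. There the ranges of Ccl9, Ccl6 and Ccl4 overlapped from each to the next, as did those of Ccl2 and Ccl22 and of Ccl22 and Ccl7. Ccl9 was above Ccl3 in each WT library and below it in each knockdown library, and Ccl2 was above Ccl5 in each WT library and below it in each knockdown library.

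**Figure D4:**
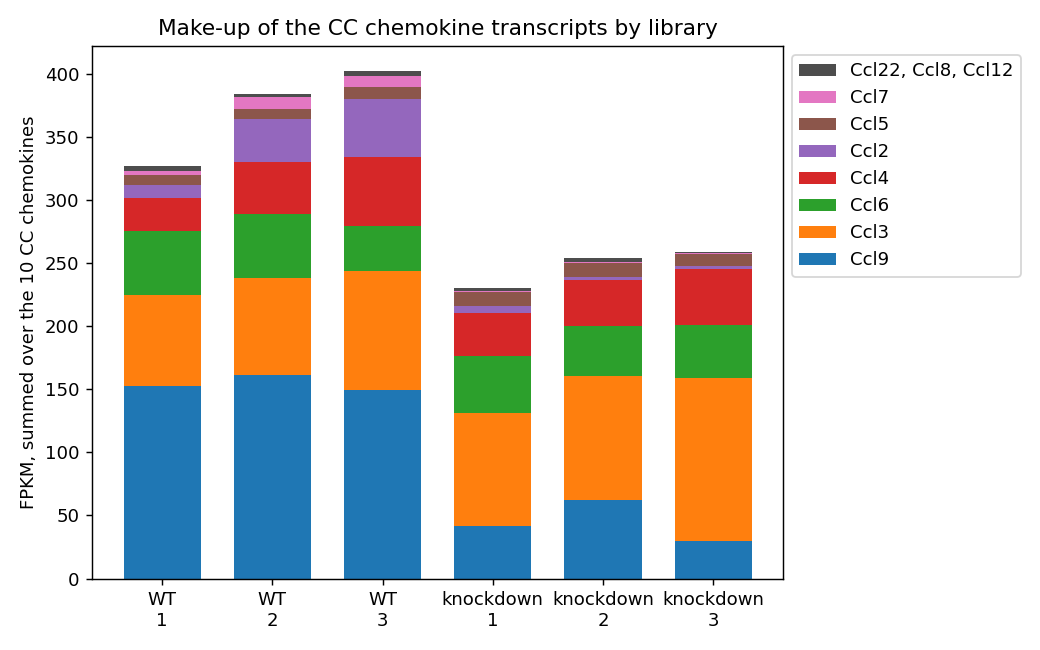
FPKM summed over the 10 CC chemokines (y axis, from 0) in each library, with each gene as a segment except Ccl22, Ccl8 and Ccl12, which share 1. Ccl9 is the largest segment in the 3 WT libraries, at 149.5 to 161.3 FPKM, and Ccl3 in the 3 knockdown libraries, at 89.8 to 129 FPKM.

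The genes nearest to a chemokine in profile were found by the root-mean-square difference of centred log2 CPM (counts scaled to library size) over the 6 libraries, among 11485 other genes with a mean of at least 1 FPKM. For Ccl2 these were Cdc6 (0.46), Ankle1 (0.46), Cenpu (0.48), Ccl7 (0.49) and H3c14 (0.53). All 5 shared with Ccl2 a WT replicate 1 well below the other WT libraries, which the choice by likeness over these same libraries favours. Cdc6, for instance, was at 0.529, 2.51 and 3.39 FPKM in WT. Of the other chemokines, Ccl9 came next at 1.02, in place 283, and Ccl3 was the farthest at 1.83. For Ccl9 the nearest were Cd72 (0.16), Gpr84 (0.17), Clec12a (0.18), Cmpk2 (0.19) and Olfm1 (0.19). For Ccl6 they were Abl1 (0.042), Shfl (0.063), Atxn1l (0.065), Tpd52 (0.068) and Il4ra (0.076), and small differences are common among genes that vary little.

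Most other CC chemokines were hardly detected. Of 13 further genes of the family 12 were in the table and 3 were tested, Ccl25, Ccl27a and Ccl28, none of which passed (log2 fold changes -0.10, 0.39 and 0.04). 9 of the 12 stayed under 0.1 FPKM in every library, among them Ccl17, the other CCR4 ligand gene, and Ccl24. Among 17 CXC and other chemokines 11 were tested, 1 fell and 0 rose, beside 6.46% and 4.87% of all genes tested. The gene that fell was Cxcl10, an interferon-induced attractant of T cells, from 1.53 ± 0.361 to 0.183 ± 0.0855 FPKM (-2.96, SE 0.428, edgeR adjusted p = 0.0141). The median log2 fold change of the 11 was -0.42.

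On the receptor side 10 of 14 genes were tested, 1 fell and 1 rose. Over all genes tested 6.46% fell and 4.87% rose, so these counts alone show nothing particular to the receptors. Ccr2, the receptor for Ccl2, Ccl7 and Ccl12, was at 2.33, 3.13 and 0.842 FPKM in the knockdown and at 12.4, 7.86 and 7.05 FPKM in WT (-2.08, SE 0.468, edgeR adjusted p = 0.0371). So the RNA of this receptor and of 2 of its ligands was lower in the knockdown group. Within WT they did not run together: replicate 1 had the highest Ccr2 but the lowest Ccl2 and Ccl7. Ccr1, the receptor for Ccl9, Ccl6, Ccl3 and Ccl5, was at 14.9 ± 1.98 FPKM in WT against 10.6 ± 3.43 in the knockdown (-0.45, adjusted p = 0.265). The receptor gene that rose was Ccrl2, which encodes an atypical receptor that presents chemerin, from 5.58 ± 2.81 to 18.1 ± 5.65 FPKM (1.75, SE 0.425, adjusted p = 0.0455). Ccr4 and Ccr8 were under 0.1 FPKM in every library.

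Genes known to induce or limit chemokine RNA were also measured. Of 23 NF-kB pathway and inducer genes 22 were tested, 6 fell and 1 rose, with a median log2 fold change of -0.23. Over all genes tested the median was 0.02, 6.46% fell and 4.87% rose. Among those that fell were the cytokine gene Tnf (-1.38), the Toll-like receptor adaptor gene Myd88 (-0.72) and the NF-kB subunit gene Nfkb1 (-0.63), while the cytokine gene Il1a rose (3.06, edgeR adjusted p = 0.0120). The other 3 that fell were Irak4 (-0.36), Nfkbiz (-0.55) and the AP-1 subunit gene Fos (-1.95). Rela, which encodes the other main NF-kB subunit, did not pass (-0.25, adjusted p = 0.176). Of 8 genes for proteins that bind AU-rich elements or decay sites in cytokine mRNAs 2 fell and 0 rose. These were Zfp36, whose product tristetraprolin destabilises such mRNAs, from 84.8 ± 2.85 to 26.3 ± 7.87 FPKM (-1.63, adjusted p = 0.0114), and Zfp36l2 (-0.32, adjusted p = 0.0424). All of these calls share the dependence on WT replicate 2.

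Markers of the cells in culture moved as well, and their part in the chemokine values was not tested. The counts below stand beside 6.46% of all genes tested that fell and 4.87% that rose. Of 10 macrophage genes 6 fell: Fcgr1 (-2.11), Cd163 (-1.45), Cd14 (-1.22), Csf1r (-1.18), Adgre1 (-0.93) and Itgam (-0.87). The 1 that rose was Cd68 (0.63). The 10 genes had a median log2 fold change of -1.05. Their sum, mostly Lyz2, was 24244.9 to 31381.3 FPKM in WT against 1988.8 to 13198.2 in the knockdown. The 9 without Lyz2 summed to 1790.5 to 2002.4 FPKM in WT against 1751.5 to 1915.2 in the knockdown. Cd68 held 930.2 to 971.2 FPKM of this in WT and 1273.4 to 1570.7 in the knockdown. Csf1r held 347.1 to 541.4 FPKM in WT and 159.9 to 223.0 in the knockdown. The overlap of the sums therefore does not show that these genes were at even levels. Of 8 monocyte genes 2 fell, Ccr2 and Nr4a1, and 0 rose. The sum of the 8 was 46.0 to 52.7 FPKM in WT against 39.3 to 45.2 in the knockdown. Ccr2, also counted among the receptors, fell from a mean of 9.10 to 2.10 FPKM. By mean Chil3 was the largest part (16.2 FPKM in WT, 18.4 in the knockdown), and neither it nor Ly6c2 (0.48) passed. The median log2 fold change of the 8 was -0.04, with 4 below 0. The sum of 10 neutrophil genes was 79.8 to 128 FPKM in the knockdown against 102 to 155 in WT, with 1 higher, Mpo, and 1 lower, Ltf. In the same order, for 10 dendritic cell genes it was 18.7 to 30.0 against 9.55 to 13.6 FPKM, mostly Kit, Itgax and Ccr7, with 1 higher, Kit. Kit is not specific to dendritic cells. The median log2 fold change of the 10 was 0.04, with 4 below 0, so the larger sum was not shared by the list. For 10 mast cell, basophil and eosinophil genes the sum was 7.01 to 15.6 against 2.43 to 4.87 FPKM, with 2 higher, Prg2 and Prss34. The sum of 8 B cell genes was 10.8 to 31.2 against 56.1 to 72.6 FPKM, with 1 lower, Ighm, which made up most of it. That of 11 T and NK cell genes was 5.09 to 9.15 against 0.884 to 1.48 FPKM, with 1 higher, Cd4. This sum was mostly Cd4 itself (6.58 ± 1.98 against 0.772 ± 0.171 FPKM). For 8 fibroblast and stromal genes the sum was 0.707 to 5.36 against 1.89 to 6.61 FPKM with no call, and for 6 endothelial genes 20.1 to 24.5 against 14.9 to 16.8 FPKM with 1 higher, Kdr. The endothelial sum was mostly Vwf, which did not pass (edgeR adjusted p = 0.057).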

How the data were processed

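RNA was sequenced from 3 Lamtor5 knockdown and 3 WT libraries of M-CSF-induced bone marrow macrophages, made with a SMARTER mRNA-Seq kit per the labels' protocols and grouped by title and genotype. The authors deposited 1 table with an estimated count and an FPKM value per gene and library, per the file headers. The deposited counts are whole numbers but are not a tally of fragments, since they sum to 2.95 to 3.01 per read pair kept; no counting interval was made from them. Where a count is 0 the deposited FPKM value is 0.0001, printed here as 0. The authors trimmed adapters with cutadapt 1.9 (overlap 5, minimum length 100), per the file headers. The build is GRCm38 (mm10), per the submitters' processing notes; how reads were aligned and counted, and whether by strand, is not given in these sources.

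The whole table was fitted with edgeR 4.0.16 (R 4.3.3): filterByExpr with a minimum count of 10, TMM scaling, the quasi-likelihood test on group, and p-values adjusted by Benjamini-Hochberg (18164 genes, threshold 0.05). The SE is the log2 fold change divided by the square root of F. The code was tested on simulated counts. Ratios within libraries were compared by exact permutation (scipy 1.17.1). The chemokines, the 9 pathway and 9 marker lists and the naming rule (all 10 chemokines, up to 4 genes of a list that pass and any others needed to account for it, the 5 genes nearest in profile, and all genes inside a cluster) were chosen with earlier results of these data known. The alternatives were RLE factors, no filter, DESeq2 1.42.0, limma 3.58.1 on log2(FPKM + 1) or log2(FPKM + 0.1), counts divided by 4, a replicate block, and leaving out each library in turn. Genes given only as levels or as not passing (Ccr1, Ccr7, Itgax, Flt3, Zbtb46, Rela, Vwf) were named after their values were seen. So were Csf1r and Cd68, which passed. Clec9a, Cd209a, Xcr1, Siglech, Trac, Nkg7, Gzmb, Klrb1c, Chil3 and Ly6c2, which did not pass or were not tested, were also named with their values known.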

Additional observations from a re-analysis of the deposited data

How the results depend on the processing

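Under the 14 alternatives to edgeR with all libraries, Ccl2, Ccl7 and Ccl9 kept their direction throughout, and no chemokine rose past the threshold (0 in each). The log2 fold change of Ccl2 ranged from -3.55 to -2.60 and its adjusted p from 0.000245 to 0.103, past the threshold in 6 of 14. Ccl7 ranged from -3.72 to -2.18 (past it in 11 of 14, adjusted p up to 0.0616) and Ccl9 from -2.04 to -1.54 (12 of 14, up to 0.0644). The number of chemokines that fell was 3 with RLE factors, with DESeq2, with counts divided by 4 and in limma with a minimum of 1 FPKM. It was 2 in edgeR without a filter on low counts, where the adjusted p of Ccl2 was 0.0511, and 1, Ccl9, in limma on log2(FPKM + 1) with no minimum. Leaving out 1 library gave 0 to 3. Changes of sign occurred for Ccl4 (4 settings), Ccl6 (3) and Ccl22 (1), none of which passed in any.

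Over all genes 2058 passed, 3641 with DESeq2, 1205 without a filter, 1160 in limma with no minimum, and 0 to 2334 with 1 library left out. The replicate block gave 728 genes and 2 chemokines, Ccl7 and Ccl9. The labels do not say that a number marks a shared animal or batch. The deviations of same-numbered libraries correlated at 0.046, 0.036 and -0.011 across genes. Correlations this weak, from 3 libraries per group, cannot decide whether the numbers pair the samples. Knockdown replicate 1 correlated best with WT replicate 1 and knockdown replicate 2 with WT replicate 2, but knockdown replicate 3 did not with WT replicate 3. Why calls were lost where no library was left out was not tested. At this depth Ccl8 and Ccl12 rest on 33 estimated counts or fewer per library.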
